A study of Mus musculus with 40 samples.

Results

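The midbrain of MPTP-treated mice that received SU-Eohyeol pharmacopuncture (SUEHP) together with the cannabinoid receptor antagonist SR141716A (MPTP-SU+S) was compared with the midbrain of normal controls (Con). The comparison was defined by the sample labels and used 8 of the 40 mRNA-sequencing libraries of the series, 4 from MPTP-SU+S and 4 from Con. All mice were male C57BL/6N animals, 8 weeks old when obtained and older when the tissue was taken, and 1 library was made from each sample. Con mice were injected with saline. MPTP-SU+S mice received MPTP intraperitoneally at 20 mg/kg in 4 injections given every 2 h. From 1 week after MPTP they received 4 bilateral injections of SUEHP, a herbal formula with deer antler extract, into an acupoint of the lower leg, and SR141716A was given intraperitoneally at 3 mg/kg shortly before each. It was dissolved in a mixture of ethanol, Alkamuls and saline, and no injection of this solvent alone is described for the groups without an antagonist. The labels spell the antagonist SR141714A. The study names GB34 as the acupoint in its methods and GB35 for this group in a legend. The other groups carry part of the same treatment and are given as background: MPTP with saline at the acupoint (MPTP-Veh), MPTP with SUEHP (MPTP-SU), and MPTP with SUEHP and the PPARγ inhibitor T0070907 at 5 mg/kg (MPTP-SU+T). MPTP-SU+S and Con thus differ in MPTP, SUEHP and SR141716A together, and no group received SR141716A without SUEHP, so the parts played by the 3 agents cannot be told apart in this comparison.

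SR141716A blocks the CB1 receptor, the main G protein-coupled receptor for endocannabinoids in brain, which sits largely on axon terminals and lowers transmitter release when activated. MPTP is converted by glia to MPP+, which enters dopaminergic neurons through the dopamine transporter and inhibits complex I of the respiratory chain, so that the midbrain of treated mice is a common model of the neuron loss of Parkinson's disease. Immediate early genes such as Fos and the Egr family are transcribed within minutes of synaptic activity and are widely used as a record of it, whereas genes such as Neurod6 and Tbr1 mark glutamatergic neurons of the cortex and hippocampus and are scarce in midbrain neurons.

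Con libraries held 15020767 to 16295834 counts and MPTP-SU+S libraries 14661104 to 15998123. Midbrain markers were present in both groups: the summed level of 12 such genes, among them Th, Slc6a3, En1 and Tph2, was 221 to 336 CPM (counts scaled to the effective library size) in Con and 199 to 468 CPM in MPTP-SU+S. MPTP-SU+S replicate 1 stood apart from the rest of its group, with 10.7% of its counts on mitochondrial genes against 15.7% to 17.5% in the other 3 and a chi-square per gene of 53.7 to 80.5 against them, whereas Con pairs lay at 7.99 to 16.7. The chi-square weighs genes with many counts most, and the transcript Gm26917 was at 81850 CPM in this library against 12272 to 22782 CPM in the other 3. Its rank correlation with the median of the other midbrain libraries, 0.9899, lay within the Con range of 0.9871 to 0.9932. MPTP-Veh replicate 4 had 1.35% mitochondrial counts. It is in neither group of the main comparison, but enters its expression filter, its normalization and the shared estimate of the spread. The number of differentially expressed genes (DEGs) is therefore also given without each of these libraries.

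Most of the genes that differed between the groups were lower in MPTP-SU+S. Of 16629 genes tested with edgeR's quasi-likelihood model, 117 were DEGs, which had to change by more than 1.5-fold with a p-value under 0.05 after Benjamini-Hochberg adjustment. This was 0.704% of the genes tested. Among these, 112 were lower in MPTP-SU+S (0.674%) and 5 were higher (0.0301%), and 75 of the lower genes fell by more than 2-fold and 30 by more than 4-fold. The 4 values of one group lay entirely apart from the 4 of the other in 116 of the 117, with Zdhhc23 as the exception, while 18.4% of all tested genes showed such separation. The DEGs were called from these same values, so the separation is no further evidence for them. The median log2 fold change over all genes was 0.02. Leaving out MPTP-SU+S replicate 1 gave 46 DEGs, and leaving out replicate 2, 3 or 4 gave 29, 25 or 29. Without Con replicate 2 there were 30 and without Con replicate 4 there were 57, and without MPTP-Veh replicate 4 there were 480, of which 398 were lower.

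**Figure D1:**
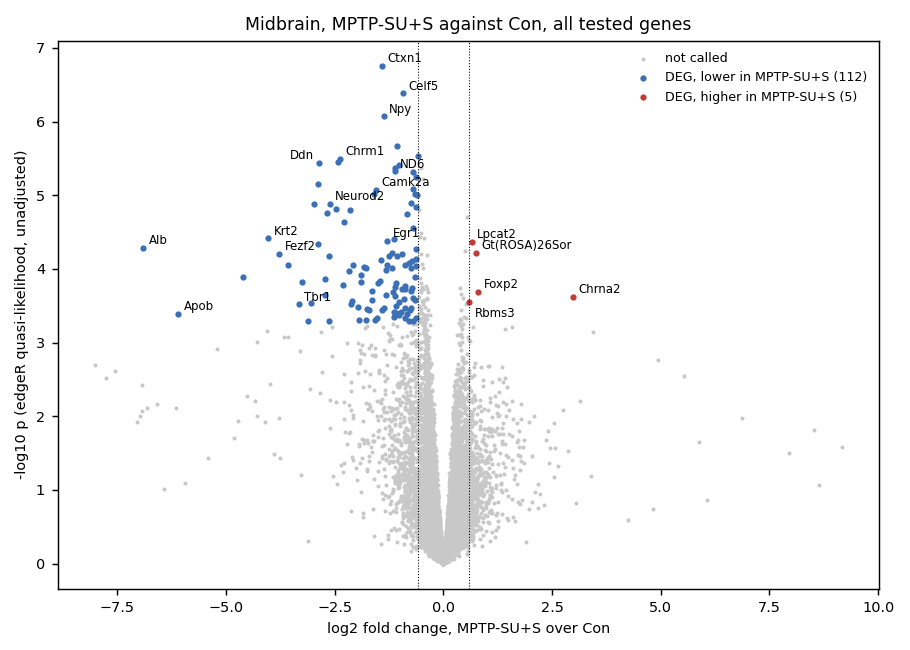
Each point is 1 of the 16629 genes tested in midbrain, with the log2 fold change of MPTP-SU+S over Con on the x axis and the negative log10 of the unadjusted edgeR p-value on the y axis. The 112 lower DEGs (blue) lie left of the dotted line of a 1.5-fold change and the 5 higher DEGs (red) lie right of the other.

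The genes with the smallest p-values were all lower in MPTP-SU+S. Ctxn1, a small membrane protein of neurons, stood at 81.3, 116, 71.3 and 81.8 CPM in the 4 Con libraries and at 30.7, 31.3, 33.5 and 36.5 CPM in MPTP-SU+S, a log2 fold change of -1.41 (SE 0.18, edgeR adjusted p = 0.00289). The groups did not overlap, and the spread within MPTP-SU+S was small. Celf5, a neuronal RNA-binding protein of the CELF family, stood at 127, 166, 118 and 129 CPM in Con and at 62.5, 68.4, 71.7 and 82.5 CPM in MPTP-SU+S (log2 fold change -0.92, SE 0.12, edgeR adjusted p = 0.00343). Npy, the precursor of neuropeptide Y, was at 12.5, 20.2, 13.1 and 11.4 CPM in Con against 5.26, 5.22, 4.43 and 7.17 CPM (log2 fold change -1.37, SE 0.19, edgeR adjusted p = 0.0047). All 4 MPTP-SU+S values of both genes lay below the lowest Con value. Hrk, a BH3-only protein of the cell death machinery, was lower with a log2 fold change of -1.07, and Chrm1, the M1 muscarinic acetylcholine receptor, with -2.39. Chrm4, the M4 receptor, was lower as well (log2 fold change -1.53). Each of these genes has an exact permutation p of 0.0286, the smallest that 4 against 4 libraries allow.

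Some DEGs of dendrites and synapses, chosen for their known roles after their values were seen, follow. Ddn, which encodes the dendritic protein dendrin, had the strongest fall of the 10 genes with the smallest p-values, from 95.4, 251, 95.2 and 106 CPM in Con to 19.1, 20.4, 22.5 and 14 CPM in MPTP-SU+S (log2 fold change -2.85, SE 0.44, edgeR adjusted p = 0.00621). Con replicate 2 was far above the other Con libraries for this gene, but the lowest Con value was still above every MPTP-SU+S value. Synpo, the spine protein synaptopodin, Itpka, an inositol trisphosphate kinase of dendritic spines, and Icam5, a dendritic adhesion molecule, were lower with log2 fold changes of -1.25, -2.28 and -2.67. Hpca and Hpcal4, calcium sensors of the hippocalcin family, were lower by -1.12 each. Syt5, a synaptotagmin of the presynaptic side, was lower (log2 fold change -0.69). The lists that bear on synapses held no DEG: of 28 glutamate receptors and transporters 14 were above and 14 below zero with a median of -0.02, and the 30 genes of synaptic vesicles and release had a median of -0.07. Of these 30, 6 were lower without overlap and 0 higher, against 9.87% and 8.55% of all genes. Their summed level was 12782 to 14199 CPM in Con and 11813 to 12534 CPM in MPTP-SU+S. Syn1 (log2 fold change -0.44, edgeR adjusted p = 0.0166) and Gria1 (-0.55, edgeR adjusted p = 0.0489) passed the adjusted threshold, but their fold was below 1.5. Of 41 potassium channel genes 2 were called, Kcnj4 (log2 fold change -2.46) and Kcnip2 (-1.89), both lower, against 0.674% of all genes, while 24 of the 41 were above zero and the median was 0.09. Kcnj4 was not called without MPTP-SU+S replicate 2, and Kcnip2 was not called when any 1 MPTP-SU+S library, or Con replicate 2 or 4, was left out.

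Genes that mark cortical and hippocampal neurons made up the group with the most DEGs. Of 22 tested genes of this list 9 were called lower and none higher, against 0.674% lower over all genes, 12 were lower in MPTP-SU+S without overlap, against 9.87% of all genes, and the list's median log2 fold change was -1.10. Camk2a, the alpha subunit of the calcium- and calmodulin-dependent kinase II, was at 710, 1200, 534 and 611 CPM in Con and at 189, 274, 269 and 320 CPM in MPTP-SU+S (log2 fold change -1.54, SE 0.25, edgeR adjusted p = 0.00736). Neurod2, a transcription factor of forebrain excitatory neurons, was at 25.7, 53.6, 14.9 and 25 CPM in Con and at 5.94, 4.55, 3.9 and 5.1 CPM in MPTP-SU+S (log2 fold change -2.61, SE 0.45, edgeR adjusted p = 0.00887). Both genes were highest in Con replicate 2 and lowest, within Con, in replicate 3, and neither overlapped between the groups. Tbr1, a factor of deep-layer cortical neurons, stood at 39.7, 11.7, 7.2 and 5.51 CPM against 1.3, 2.09, 1.65 and 1.32 CPM (log2 fold change -3.32, edgeR adjusted p = 0.0408). For Tbr1 the Con mean rests largely on replicate 1, which was above the other 3 Con libraries together. Neurod6 (log2 fold change -3.25), Nrgn (-2.09), Lhx2 (-1.08), Zbtb18 (-0.88) and Hpcal4, already described, were among the other members called. Slc17a7, the vesicular glutamate transporter of cortical neurons, had a log2 fold change of -1.79 and was not called (edgeR adjusted p = 0.108).

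The Con libraries differed among themselves in the level of this list. The summed level of its 24 genes was 2247, 3250, 1606 and 1964 CPM in Con replicates 1 to 4 and 910, 1039, 1009 and 1078 CPM in MPTP-SU+S, so that every Con library lay above every MPTP-SU+S library. The other MPTP groups lay between 969 and 1555 CPM, below the lowest Con library. With the mean log2 CPM of 3 list members, Neurod6 and Tbr1 among them, added for each library to the model, no gene was a DEG by edgeR, with 2398 at an unadjusted p below 0.05 against 831 by chance. These 3 genes were themselves called lower, and their list separated the groups completely, so the covariate takes up part of the group difference by construction. With it, 110 of the 112 lower DEGs still had a log2 fold change below zero, with a median of -0.67 against -1.27. The values for Ctxn1, Hrk, Npy and ND6 were -1.45, -0.99, -1.12 and -1.39. Egr3 and Camk2a shrank to -0.93 and -0.88, and Cnksr2 and Neurod6 turned positive. With Con replicates 1 and 2, the pair with the highest level, left out together, no gene was a DEG, with 1017 at an unadjusted p below 0.05. The other pairs of Con libraries gave 146 DEGs (without 1 and 3), 29 (1 and 4), 4 (2 and 3), 0 (2 and 4, with 1094 at an unadjusted p below 0.05) and 95 (3 and 4). All 112 lower DEGs remained below zero without any of the 6 pairs, with medians from -1.51 to -0.99. In 111 of them every MPTP-SU+S value lay below every Con value, so leaving out Con libraries could hardly turn their sign. Nothing is read from the signs. These settings were chosen after the values had been seen, and a pair left out leaves 2 Con libraries. Since bulk RNA was measured, fewer cells of a type and less RNA per cell cannot be told apart here, and the part of forebrain tissue in the other DEGs was not tested beyond these settings. Of the 9 members called, Camk2a, Hpcal4 and Neurod2 were also called without MPTP-SU+S replicate 1 and without Con replicate 2, and the other 6 were not. Without MPTP-SU+S replicate 3 only Camk2a and Hpcal4 were called.

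**Figure D2:**
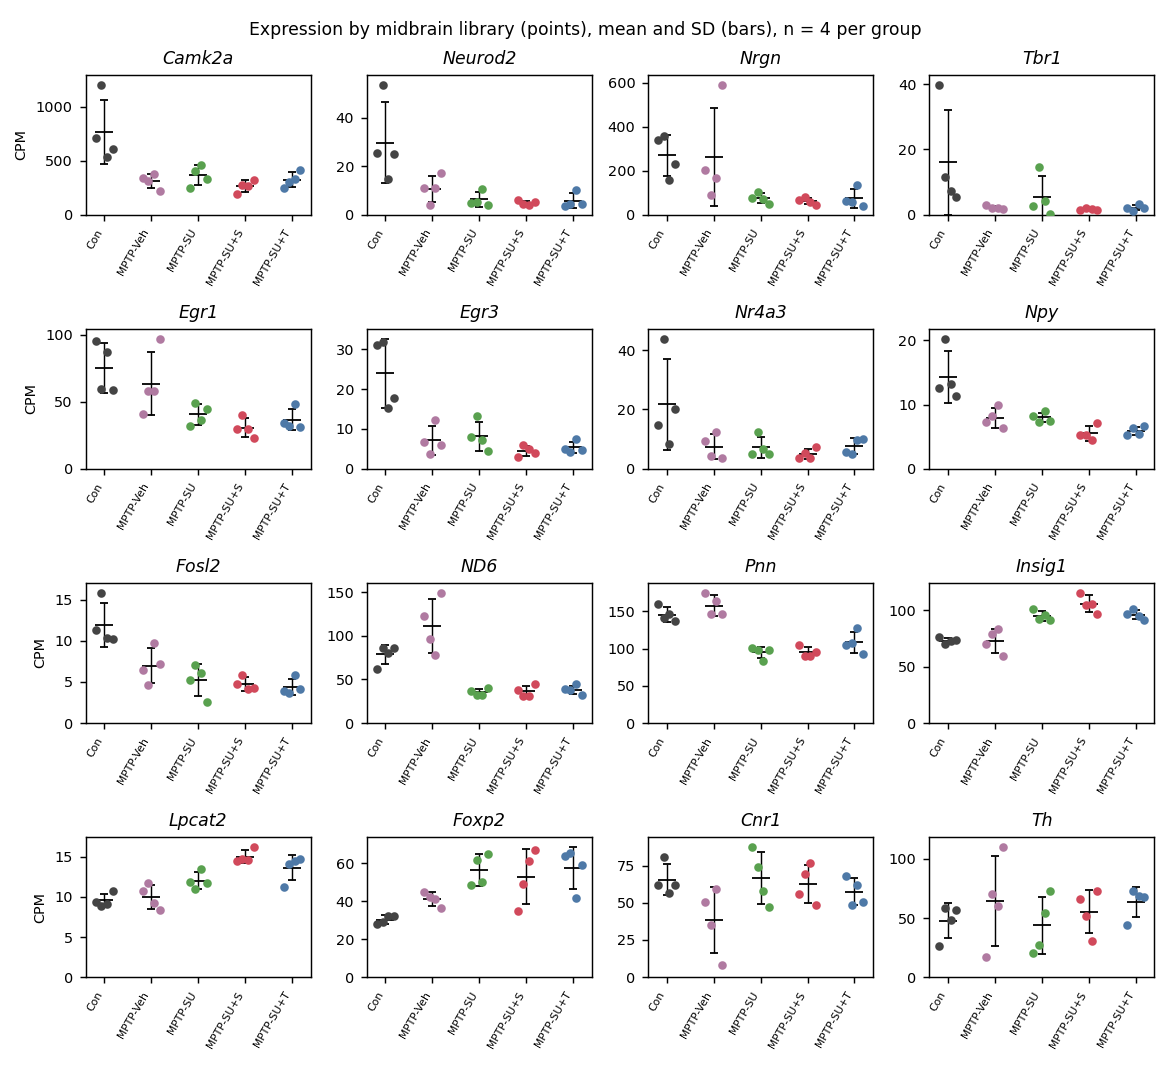
Points show the CPM of 16 genes in each of the 20 midbrain libraries, with the group mean and SD (n = 4) as bars, on linear axes that start at 0. Camk2a, Neurod2, Nrgn and Tbr1 have their highest group mean in Con and spread widely there, although MPTP-Veh replicate 4 is the highest single library for Nrgn, ND6 and Pnn are low in the 3 groups that received SUEHP and high in Con and MPTP-Veh, and Cnr1 and Th overlap between all groups.

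Immediate early genes held the next largest number of DEGs. Of 30 tested members 5 were called lower, against 0.674% of all genes, and 12 were lower without overlap, against 9.87% of all genes. The median log2 fold change was -0.47, with 27 of 30 below zero. Egr3, a zinc finger factor induced by synaptic activity, was at 30.9, 31.7, 15.2 and 17.7 CPM in Con and at 2.94, 6.02, 5.02 and 3.9 CPM in MPTP-SU+S (log2 fold change -2.41, SE 0.37, edgeR adjusted p = 0.00621). Egr1, its close relative, was at 95.3, 59.9, 87.5 and 58.8 CPM in Con and at 29.8, 40.2, 30.1 and 23.2 CPM in MPTP-SU+S (log2 fold change -1.29, SE 0.24, edgeR adjusted p = 0.0171). Within Con, Egr3 had the same order of libraries as the summed forebrain list, with replicate 2 highest and replicate 3 lowest, whereas Egr1 was highest in replicate 1. Nab2, a corepressor that binds Egr proteins and is itself induced by them, was also lower (log2 fold change -0.72, edgeR adjusted p = 0.0337).

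The other 3 called members were Fosl2, an AP-1 subunit, Nr4a3, an orphan nuclear receptor, and Egr4. Fosl2 was at 11.3, 15.8, 10.3 and 10.2 CPM in Con and at 4.78, 5.9, 4.1 and 4.28 CPM in MPTP-SU+S (log2 fold change -1.32, edgeR adjusted p = 0.0246). Nr4a3 was at 14.8, 43.7, 8.53 and 20.1 CPM in Con and at 3.62, 5.47, 3.57 and 7.36 CPM in MPTP-SU+S (log2 fold change -2.12, edgeR adjusted p = 0.0408). In Egr4, the rarest of the 5, the groups stood at 1.96 to 2.74 CPM and 0.566 to 0.984 CPM (log2 fold change -1.56, edgeR adjusted p = 0.0493). Without MPTP-SU+S replicate 1, Egr3 was the only one of the 5 still called, and without Con replicate 2 Egr1 and Egr3 were. Fos itself was at 17.3, 10.6, 19.7 and 16.6 CPM in Con and at 11.3, 11.4, 6.48 and 7.43 CPM in MPTP-SU+S, so that the groups overlapped (log2 fold change -0.81, edgeR adjusted p = 0.154). Arc, Npas4 and Homer1, other activity-induced genes, overlapped as well. The summed level of the list was 546 to 654 CPM in Con, 399 to 450 CPM in MPTP-SU+S, 379 to 507 CPM in MPTP-SU and 399 to 559 CPM in MPTP-SU+T. In MPTP-Veh it was 419, 482, 525 and 993 CPM, the last in replicate 4, which stood apart.

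The promoters of 3 of these genes are shown because the genes fell together and because immediate early genes are classically switched on through the cyclic AMP response element (CRE), the serum response element with its CArG box, and binding of Egr proteins themselves. Each sequence runs from 250 bases before to 50 bases after the RefSeq start site of mouse assembly GRCm38.p6, Egr4 at chr6:85513540-85513839 on the minus strand, Fosl2 at chr5:32136222-32136521 and Nr4a3 at chr4:48045055-48045354, both on the plus strand. Capitals mark the CRE core TGACG on either strand, or the Egr motif GCGGGGGCG or GCGTGGGCG.
Egr4: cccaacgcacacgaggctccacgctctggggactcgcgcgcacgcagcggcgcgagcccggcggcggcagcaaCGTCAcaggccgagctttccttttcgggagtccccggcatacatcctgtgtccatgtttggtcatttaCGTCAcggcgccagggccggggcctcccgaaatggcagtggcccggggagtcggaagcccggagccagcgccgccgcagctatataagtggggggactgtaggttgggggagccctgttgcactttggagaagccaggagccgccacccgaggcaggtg
Fosl2: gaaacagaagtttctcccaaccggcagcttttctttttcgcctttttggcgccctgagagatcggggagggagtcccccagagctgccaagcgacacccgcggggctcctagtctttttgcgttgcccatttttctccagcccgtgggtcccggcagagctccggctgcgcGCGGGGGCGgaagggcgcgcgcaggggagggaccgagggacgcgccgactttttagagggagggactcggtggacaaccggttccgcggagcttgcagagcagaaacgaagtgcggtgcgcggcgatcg
Nr4a3: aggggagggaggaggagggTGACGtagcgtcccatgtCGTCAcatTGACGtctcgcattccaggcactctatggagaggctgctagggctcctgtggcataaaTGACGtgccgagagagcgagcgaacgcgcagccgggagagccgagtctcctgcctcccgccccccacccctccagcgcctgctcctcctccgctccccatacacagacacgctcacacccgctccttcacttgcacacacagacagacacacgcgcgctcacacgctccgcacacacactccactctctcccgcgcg

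The Nr4a3 window held 4 CRE cores, the Egr4 window held 2, and the Fosl2 window held none but 1 Egr motif. Over all 32851 promoters of the same length, 20.8% held at least 1 CRE core and 3.47% an Egr motif. The full CRE TGACGTCA, in which every match also counts as a CRE core, occurred in 1.79% and the CArG box in 1.63% of promoters, and neither was in these 3 windows. The matches describe letters in the sequence and not binding.

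**Figure D3:**
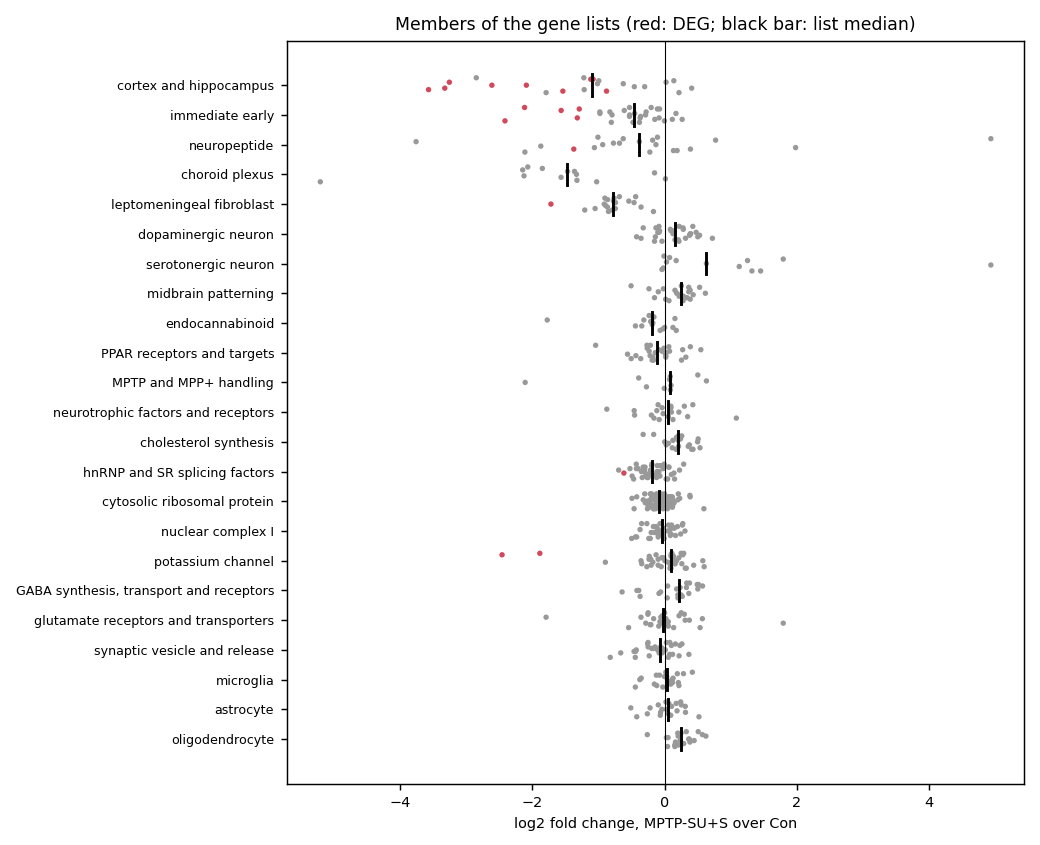
Each point is a tested gene of 1 of 23 gene lists, placed by its log2 fold change of MPTP-SU+S over Con, with DEGs in red and the median of each list as a black bar. The cortex and hippocampus list and the immediate early list hold most of the red points, while the dopaminergic, endocannabinoid, PPAR, microglia and astrocyte lists hold none.

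The genes at which the treatments are directed were not called. Cnr1, which encodes CB1, was at 62.1, 81.1, 56.9 and 62.3 CPM in Con and at 55.8, 69.3, 76.4 and 48.7 CPM in MPTP-SU+S (log2 fold change -0.07, SE 0.35, edgeR adjusted p = 0.969). None of the 17 tested genes of endocannabinoid synthesis, breakdown and signalling was a DEG. Of the 17, 14 were below zero and the median was -0.19. Without overlap, 4 were lower and 1 was higher, against 9.87% and 8.55% of all genes. Faah, the anandamide hydrolase, was among those 4 (log2 fold change -0.44, edgeR adjusted p = 0.529). Pparg was low in both groups, at 0.758 to 1.91 CPM in Con and 0.441 to 1.29 CPM in MPTP-SU+S, and none of 28 PPAR receptors and targets was called. Cnr2 was below the expression filter.

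Dopaminergic genes were likewise not called. Th, the rate-limiting enzyme of dopamine synthesis, was at 26.4, 58.8, 48.3 and 57.1 CPM in Con and at 66, 52, 30.9 and 72.4 CPM in MPTP-SU+S (log2 fold change 0.22, SE 0.44, edgeR adjusted p = 0.905). Slc6a3, the dopamine transporter, was at 44.4, 105, 69.5 and 97.8 CPM in Con and at 105, 89, 33.9 and 110 CPM in MPTP-SU+S (log2 fold change 0.10, SE 0.49, edgeR adjusted p = 0.969). Both genes varied more than 2-fold within each group. With SEs of 0.44 and 0.49 on the log2 scale, even a 2-fold change could have gone uncalled with these libraries. None of 30 dopaminergic genes was a DEG, with a list median of 0.15. Bdnf, a neurotrophin, had a log2 fold change of -0.08 (edgeR adjusted p = 0.905). Gfap of astrocytes (log2 fold change -0.42), Aif1 (-0.44) and Itgam (0.03) of microglia and the kinase gene Mapk14 (-0.13) were not called, nor was any of 21 microglial, 21 astrocytic or 22 oligodendrocytic genes.

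A small set of lower DEGs differed from the rest in the MPTP-Veh group. In 10 of the 112 the MPTP-Veh mean was above Con on the fitted scale: Alb, Apob, Hmgn3, ND6, Pnn, Prpf38b, Sdccag8, Sec14l3, Sltm and Taok3, named after their values were seen. For Alb and Apob MPTP-Veh replicate 4 was far above the others, at 154 CPM against 7.72 to 12.4 CPM and at 41.4 CPM against 2.62 to 3.97 CPM. ND6, the complex I subunit encoded on the light strand of the mitochondrial genome, was at 62.5, 86.3, 79.9 and 86.3 CPM in Con and at 38, 30.8, 31.5 and 44.7 CPM in MPTP-SU+S (log2 fold change -1.12, SE 0.18, edgeR adjusted p = 0.00621). It was at 78.1 to 149 CPM in MPTP-Veh and at 31.8 to 44.3 CPM over MPTP-SU and MPTP-SU+T, so that the 3 groups with SUEHP lay below both groups without it. The other 12 tested genes of the mitochondrial genome were not called, and the median of the 13 was 0.03. Pnn, a nuclear protein of splicing speckles, was at 159, 140, 146 and 137 CPM in Con and at 105, 89.6, 90.5 and 95.2 CPM in MPTP-SU+S (log2 fold change -0.62, SE 0.10, edgeR adjusted p = 0.00754), and at 146 to 174 CPM in MPTP-Veh. Of 43 SR and hnRNP splicing factors, Pnn among them, 1 was called and 21 were lower without overlap, against 9.87% of all genes, with a median of -0.20. Polr2a, the catalytic subunit of RNA polymerase II, was lower too (log2 fold change -0.62, edgeR adjusted p = 0.00913). Hmgn3, a nucleosome-binding protein, stood at 43.5 to 49.4 CPM in Con, 47.3 to 50.1 CPM in MPTP-Veh and 29.7 to 31.5 CPM in MPTP-SU+S.

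Alb and Apob, which encode albumin and apolipoprotein B and are made chiefly by liver, were the DEGs with the largest fitted fold changes. Alb was at 16, 6.74, 5.81 and 6.12 CPM in Con, and its counts in the 4 MPTP-SU+S libraries added up to 4. Apob was at 1.07 to 4.78 CPM in Con, with 2 counts in all of MPTP-SU+S. Neither was called when any 1 MPTP-SU+S library was left out. With so few counts the fitted fold depends on the prior count and is not given. A list of 24 liver genes, chosen after these values had been seen, summed to 19 to 46.7 CPM in Con and 24.5 to 36.7 CPM in MPTP-Veh replicates 1 to 3, with 412 CPM in replicate 4, against 3.27 to 3.93 CPM in MPTP-SU+S, 3.23 to 4.7 CPM in MPTP-SU and 2.9 to 4.21 CPM in MPTP-SU+T. Groups with and without SUEHP did not overlap in it. In the spinal cord Alb had a mean of 11.5 CPM in Con and 12.6 CPM in MPTP-SU+S. The part of RNA from other tissue in these 2 calls was not tested.

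**Figure D4:**
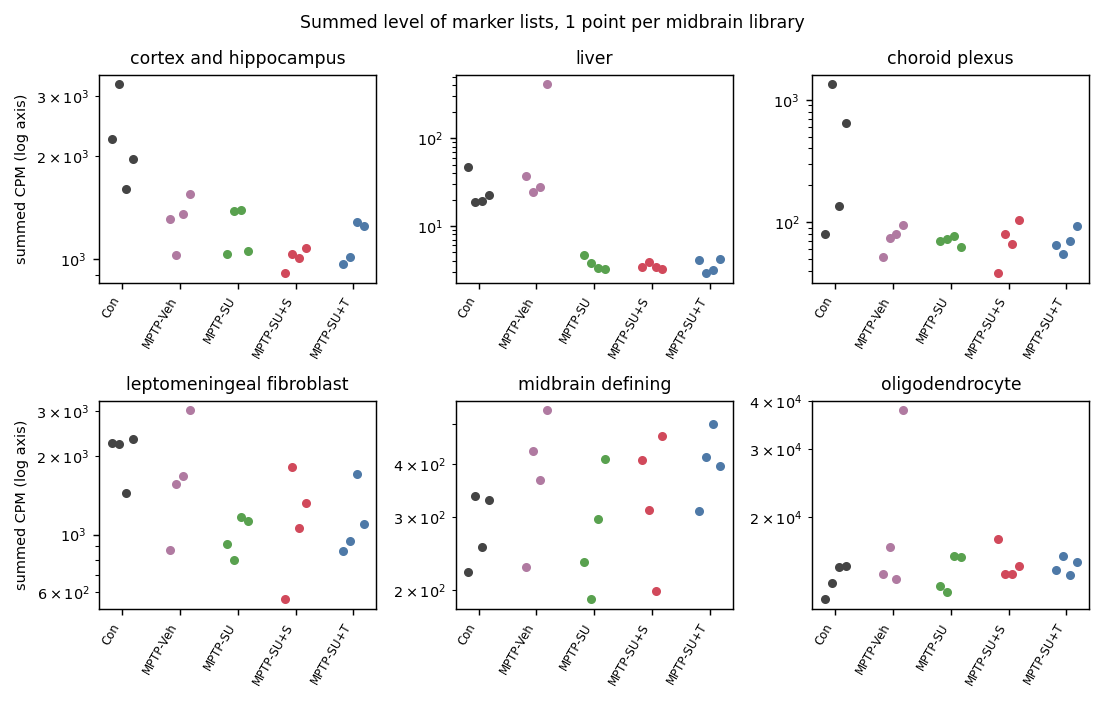
Points show the summed CPM of 6 marker lists in each midbrain library, on logarithmic axes. Con libraries are highest for cortex and hippocampus markers, liver markers separate Con and MPTP-Veh from the 3 groups with SUEHP, choroid plexus markers are high in Con replicates 2 and 4, and midbrain markers overlap between the groups.

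Markers of other tissues next to the midbrain varied between single libraries. Choroid plexus genes summed to 79.8, 1345, 136 and 645 CPM in Con and to 38.2 to 104 CPM in MPTP-SU+S, with Ttr, the transthyretin gene, at 1171 CPM in Con replicate 2 and 3.25 CPM in Con replicate 1. None of 13 tested members was a DEG, and their median log2 fold change was -1.47. Of 20 genes of leptomeningeal fibroblasts, which line the brain surface, Col6a1 was called (log2 fold change -1.72, edgeR adjusted p = 0.0431), against 0.674% of all genes lower, and all 20 were below zero with a median of -0.78. Col6a1 was not called when any 1 MPTP-SU+S library, or Con replicate 2 or 4, was left out. Hypothalamic genes summed to 519 CPM in Con replicate 3 and to 19.4 to 71.6 CPM in the other Con libraries. Thalamic genes summed to 862 to 1318 CPM in Con and to 950, 1225, 1848 and 2286 CPM in MPTP-SU+S replicates 1 to 4. Of 15 thalamic genes 12 were above zero with a median log2 fold change of 0.54, and 0 were called.

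None of the 5 higher DEGs was a member of the gene lists used here. Lpcat2, an acyltransferase that makes platelet-activating factor, was at 9.42, 8.89, 9.16 and 10.8 CPM in Con and at 14.5, 14.8, 14.5 and 16.2 CPM in MPTP-SU+S (log2 fold change 0.65, SE 0.12, edgeR adjusted p = 0.0174). Foxp2, a forkhead factor, was at 27.9, 29, 32.2 and 32.3 CPM in Con and at 34.6, 49.2, 61.2 and 67 CPM in MPTP-SU+S (log2 fold change 0.80, SE 0.18, edgeR adjusted p = 0.0345). MPTP-SU+S replicate 1 was the closest to Con in Foxp2, and no Lpcat2 value of MPTP-SU+S was below the highest of Con. Within MPTP-SU+S, Foxp2 had the same order of libraries as the summed thalamus list, but not within Con. The part of thalamic tissue in the higher DEGs was not tested. Rbms3, an RNA-binding protein (log2 fold change 0.59, at the fold threshold), and the noncoding Gt(ROSA)26Sor (0.75) rose too. Rbms3 was not called when any 1 of the 8 libraries was left out, with RLE size factors or with DESeq2. The other higher DEGs depended on single libraries too. Without MPTP-SU+S replicate 3, and without replicate 4, 0 genes were called higher. Without MPTP-SU+S replicate 2, and without Con replicate 2, 1 gene was called higher each time. Whether strand was used in counting, which matters for noncoding genes with an antisense partner, is not given in the sources used here. Chrna2, a nicotinic receptor subunit, was nearly absent from Con, at 0.122 to 0.573 CPM and 2 to 9 counts, and reached 0.859 to 4.72 CPM in MPTP-SU+S (log2 fold change 2.98, SE 0.66, edgeR adjusted p = 0.0378).

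No gene of cholesterol synthesis was a DEG, but the list stood on the higher side. Of 24 tested members 11 were higher in MPTP-SU+S without overlap and none was lower, against 8.55% and 9.87% of all genes, and the median log2 fold change was 0.21. Insig1, the sterol sensor that holds back SREBP, was at 76, 70.4, 72.6 and 73.3 CPM in Con and at 115, 105, 106 and 97 CPM in MPTP-SU+S. Its adjusted p of 0.0104 (edgeR, log2 fold change 0.53) passed the threshold, but its fold was below 1.5. Stard4, a sterol transfer protein, had a log2 fold change of 0.41 (edgeR adjusted p = 0.0531), and Msmo1, an enzyme of the pathway, one of 0.43 (edgeR adjusted p = 0.124).

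The same genes were then read in the other groups. MPTP-SU+S and MPTP-SU, which differ in SR141716A alone by their labels, had no DEG (0%), with 274 genes at an unadjusted p below 0.05 by edgeR. DESeq2 and limma-voom gave no DEG either, with 317 and 276 genes at an unadjusted p below 0.05. Chance alone would give 831, and each of these counts was below it. Without MPTP-Veh replicate 4, edgeR gave 676 such genes and still no DEG. The absence of DEGs therefore does not show that the groups were alike. For Ctxn1, Egr3 and Camk2a the log2 fold changes of MPTP-SU+S over MPTP-SU were -0.07, -0.87 and -0.47. Against MPTP-Veh there were 942 DEGs (5.66%), of which 791 were lower in MPTP-SU+S (4.76%), but with these 8 libraries alone there were none by edgeR, with 2283 genes at an unadjusted p below 0.05, and without MPTP-Veh replicate 4 there were 237. The comparisons of MPTP-SU, MPTP-SU+T and MPTP-Veh with Con use the same Con libraries as the main comparison and yielded 127 (0.764%), 26 (0.156%) and 3 (0.018%) DEGs. For the 112 lower DEGs the median log2 fold change was -1.27 in MPTP-SU+S, -1.08 in MPTP-SU, -1.04 in MPTP-SU+T and -0.78 in MPTP-Veh, each over Con. All 4 libraries lay below all 4 Con libraries for 87 of the 112 in MPTP-SU, for 87 in MPTP-SU+T and for 52 in MPTP-Veh, against 10.9%, 7.15% and 6.03% of all genes. The 112 genes were chosen as high in these same Con libraries, so nothing is read from these counts. Whether any of these differs between the groups was not tested, apart from the comparisons of MPTP-SU+S with MPTP-SU and MPTP-Veh above.

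In the spinal cord, MPTP-SU+S against Con gave 5 DEGs of 16682 genes, or 0.03%. Of the 112 genes lower in midbrain, 100 were tested there, 57 were below zero and the median log2 fold change was -0.02. Egr1 and Banp, both with an adjusted p below 0.05 there, were the exceptions: Egr1 had a mean of 51.6 CPM in Con and 32.6 CPM in MPTP-SU+S (log2 fold change -0.66, edgeR adjusted p = 0.0435). Camk2a had means of 157 and 151 CPM in the spinal cord (log2 fold change -0.06).

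**Figure D5:**
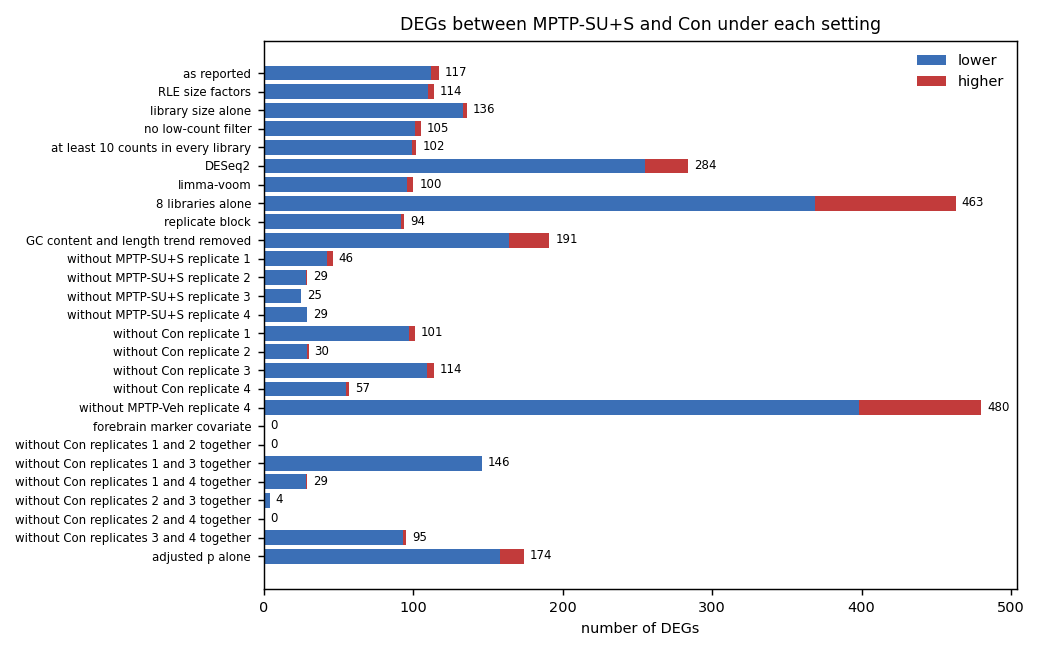
Bars show the number of DEGs between MPTP-SU+S and Con under each setting of the analysis, split into lower (blue) and higher (red), with the total at the end of each bar. The count is 117 as reported, falls to between 25 and 46 without any 1 MPTP-SU+S library, is 0 with the forebrain marker covariate, and runs from 0 to 146 without a pair of Con libraries.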

How the data were processed

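Reads of poly(A)-selected CORALL libraries were trimmed by the authors (fastp), mapped (STAR) and quantified (Salmon; GRCm39 in the submitters' processing notes, versions not given in the sources used here). The deposited tables hold 1 estimated count per gene symbol for 40213 symbols, not normalized. The methods name an Easy-Spin kit for the RNA and the labels TaKaRa RNAiso Plus. Counts were rounded and analysed in R 4.3.3 with edgeR 4.0.16: filterByExpr, TMM, and 1 quasi-likelihood model of all 20 midbrain libraries with a term for group, as fixed in the design. Nothing in the labels says whether same-group samples came from separate animals, so p-values measure the spread between these samples. CPM uses TMM library sizes. Single genes were also tested with exact two-sided permutation tests over the 70 divisions of 8 libraries. Precision is limited by 4 libraries per group. DEGs had an adjusted p under 0.05 with a change over 1.5-fold.

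Genes named are the 10 DEGs per direction with the smallest p-values and no overlap, the 5 per direction with the largest fold at 1 CPM or more, 12 genes followed whatever their values, and up to 4 called members of each gene list, some left out here. Other DEGs named were chosen for their known roles after their values were seen. The members, the 51 gene lists and the tests were chosen with earlier results of these data known, and no list was tested as a set. A list of liver genes was added later. The lists not otherwise described had at most 1 DEG each. Alternatives were RLE size factors, library size alone, other filters, DESeq2 1.42.0, limma-voom (limma 3.58.1), the 8 libraries alone, a replicate block, correction for GC content and gene length (93.2% of tested genes, GENCODE M21), and each library left out. The code was tested on simulated data. Promoters came from RefSeq (GRCm38.p6); Egr3 and Egr1 are not shown. Some genes are not reported here.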

Additional observations from a re-analysis of the deposited data

Results flagged for a closer look

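In 7 of 82 groups of 4 libraries, 1 library lay far from the others by Dixon's ratio, the gap to the nearest library over the range, which was above its 95% critical value. Chance marks about 1 in 20 groups. In Con, the ratio was 0.91 for Alb and 0.863 for the summed liver list, both highest in replicate 1, and 0.929 for Ddn, highest in replicate 2. It was 0.896 for the summed hypothalamus list, highest in Con replicate 3, and 0.901 for the summed list of leptomeningeal fibroblasts, lowest in Con replicate 3. In MPTP-SU+S it was 0.837 for Lpcat2, highest in replicate 4, and 0.976 for the summed pituitary list, highest in replicate 3 at 33.8 CPM against at most 1.98 CPM in the other 3.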

How the results depend on the processing

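Against 117 DEGs between MPTP-SU+S and Con, DESeq2 gave 284, the 8 libraries alone 463 (79.7% lower against 95.7%), removal of a GC and length trend 191, and the fit without MPTP-Veh replicate 4 gave 480 (82.9% lower). Leaving out 1 library of the 8 gave 25 to 114, with the lowest counts without MPTP-SU+S replicate 3 (25), 2 (29), 4 (29) and 1 (46) and without Con replicate 2 (30) and 4 (57). The forebrain marker covariate, chosen after seeing the data, gave 0, and leaving out a pair of Con libraries, likewise chosen, gave 0 (1 and 2), 146 (1 and 3), 29 (1 and 4), 4 (2 and 3), 0 (2 and 4) and 95 (3 and 4). Of the 117, 17 were called under every alternative other than the covariate and the pairs. Against MPTP-Veh, 942 DEGs became 582 with library size alone, 1649 with DESeq2, 402 with limma-voom and 0 with the 8 libraries alone, and 69 to 2475 with 1 library left out: 604, 69, 84 and 162 without MPTP-SU+S replicates 1 to 4, and 1596, 2059, 2475 and 237 without MPTP-Veh replicates 1 to 4. Against MPTP-SU every alternative run gave 0. The causes were not tested.

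A replicate block gave 94 DEGs against Con, and 546 against MPTP-Veh. Con and MPTP-SU+S libraries share only a number: the correlations of same-numbered deviations were 0.11, -0.11, 0.03 and 0.0027.

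Signs turned under the covariate for Cnksr2 (0.024) and Neurod6 (0.11, one of its own genes, so by construction) among the DEGs, and, among genes not called, for Cnr1 (0.89), Pparg (1.25), Th (-0.82), Slc6a3 (-0.63), Bdnf (0.25), Cacng3 (0.082) and Ttn (-0.23). They turned for Cnr1 (0.065), Pparg (0.20) and Itgam (-0.0078) without Con replicates 1 and 2, for Th (-0.075) and Slc6a3 (-0.27) without 1 and 3, for Slc6a3 (-0.050) and Itgam (-0.15) without 1 and 4, for Cnr1 (0.0050) without 2 and 3, and for Cnr1 (0.070), Bdnf (0.097) and Itgam (-0.0090) without 2 and 4. With 1 library left out, Cnr1 ranged from -0.19 to 0.046, positive without MPTP-SU+S replicate 4 or Con replicate 2. Slc6a3 ranged from -0.11 to 0.35, negative without MPTP-SU+S replicate 1 or 4 or Con replicate 1. Itgam ranged from -0.033 to 0.11, negative without MPTP-SU+S replicate 4 or Con replicate 1 or 4, and was -0.017 with library size alone.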

Other observations

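Genes of the serotonergic neuron list, whose cell bodies lie in the raphe next to the ventral midbrain, had a median log2 fold change of 0.63 with 10 of 13 above zero, and none was called. Their summed level was 122.6 to 180 CPM in Con and 152 to 223 CPM in MPTP-SU+S, and Tph2, the serotonin-synthesizing enzyme, ranged from 0.505 to 20.9 CPM in Con and from 8.73 to 47.3 CPM in MPTP-SU+S. Oligodendrocyte genes stood above zero in 21 of 22 with a median of 0.24, and 7 were higher without overlap, against 8.55% of all genes. Genes of cytosolic ribosomal proteins were lower without overlap in 25 of 81, against 9.87% of all genes, with a median of -0.09. None of these members was a DEG by edgeR.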
